A study of Mus musculus with 128 samples.

Results

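The genes described here encode the mitochondrial respiratory chain. They were chosen by name alone: every probe set whose gene symbol starts with Nduf, Uqcr, Cox4, Cox5, Cox6, Cox7 or Cox8, together with Cyc1, Sdha, Sdhb, Sdhc and Sdhd, and without Ndufv3. The rule found 71 of 21225 probe sets on a mouse gene array with 1 probe set for each gene. They comprised 36 genes of complex I by symbol, 7 complex I assembly factors (the Ndufaf genes), 4 genes of complex II, 7 of complex III and 17 of complex IV. No measured value was used in the choice.

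Gene expression had been measured in 3 mouse models of Down syndrome and in their euploid littermates. Ts1Cje mice (B6.Cg-T(12;16)1Cje/CjeDnJ) are trisomic for the distal part of mouse chromosome 16 (MMU16) and have lost a short stretch of MMU12. Ts65Dn mice (B6EiC3Sn.BLiA-Ts(17<16>)65Dn/DnJ) carry a longer MMU16 segment on a small extra chromosome that also holds the centromeric end of MMU17. Dp(16)1/Yey mice (B6129S-Dp(16Lipi-Zfp295)1Yey/J) carry the longest MMU16 segment as a duplication in place. The mothers of the Ts1Cje and Dp(16)1/Yey litters were C57BL/6J or, by the methods, also C57BL/6N females, and B6EiC3Sn.BLiAF1/J males were the fathers of the Ts65Dn litters, so that the Ts65Dn animals had a mixed background. The segment is carried throughout the body of a trisomic animal, and the tissues were not sorted, so that fewer cells of a type and less RNA per cell cannot be told apart in any value below. Forebrain was taken at embryonic day 15.5 (E15.5) from both sexes. Cortex, hippocampus and cerebellum came from the same adult males at 6 to 7 months of age.

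The 128 arrays gave 125 tissue samples once 3 repeat arrays had been averaged with the first array of their animal. Each model had 5 trisomic and 5 euploid samples in each adult region. The E15.5 embryos were 5 trisomic and 5 euploid for Ts1Cje, 6 trisomic and 7 euploid for Ts65Dn, and 6 of each for the Dp(16)1/Yey cross. These numbers follow the sample labels, and the study's own text gives a smaller number of Ts65Dn embryos of each genotype. The sources used here do not state which arrays were normalized together. Array medians differed between the 12 tables (3 models by 4 tissues), which were therefore treated as normalized apart. The array medians lay between 6.45 and 7.48 on the log2 scale in 11 tables, and between 8.52 and 8.55 in Ts1Cje forebrain. The lowest correlation between 2 arrays of a table was 0.964 in Ts65Dn hippocampus and 0.968 in Ts1Cje cortex, against 0.972 to 0.993 in the others. The mean signal of 7 cerebellar marker genes was 11.23 to 11.61 in the cerebellum samples and 6.45 to 7.09 in all but 1 of the cortex and hippocampus samples.

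That sample, of the Ts65Dn animal TS18 in the hippocampus table, went against its label. Its mean over 3 forebrain markers (Emx1, Tbr1 and Neurod6) was 5.57, where the euploid samples of the table had 8.55 to 8.64. Its mean over 5 hippocampal markers was 6.81, where the other hippocampus samples had 8.62 to 9.45 and the cerebellum samples 7.08 to 7.46, and its cerebellar marker mean of 7.51 was far below that of any cerebellum sample. Neurod6 belongs to both the forebrain and the hippocampal list. The correlation of TS18 with the other arrays of the table was 0.964 to 0.974, against 0.982 to 0.993 among the others. TS18 was kept with its label, and results that rest on it are given with and without it. In Ts1Cje cortex the euploid animal Eup347 stood apart over the respiratory chain genes. The median change and the Ndufb11 change in that table are given with and without it. Other results that use Ts1Cje cortex, among them the percentiles, the counts over comparisons and the contrasts, include this animal.

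The respiratory chain passes electrons from NADH (through complex I) and from succinate (through complex II) to ubiquinone, on to cytochrome c through complex III, and to oxygen through complex IV, cytochrome c oxidase. The proton gradient that complexes I, III and IV build is what ATP synthase, complex V, turns into ATP. Most subunits are encoded in the nucleus, as all genes here are. Neurons depend on this machinery for the ion pumping behind signalling. Several complex IV subunits exist as pairs, with one form in most tissues and another restricted to heart and skeletal muscle, lung or testis.

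None of the 71 genes lay in a segment with an abnormal copy number: 0 were found in the MMU16 segment of any model, in the MMU17 segment of Ts65Dn (Scaf8 to Pde10a) or in the MMU12 stretch lost in Ts1Cje. Outside these segments, 1 lay on MMU16 and 6 on MMU17.

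Promoter windows (250 bases before to 50 after the transcription start, from RefSeq, build GRCm38.p6) were at hand for 55 of the 71 genes. Both strands were searched for 4 short motifs that are known from promoters of nuclear genes for mitochondrial proteins. The NRF1 motif (the capitals in Ndufs5 below, with any base at the sixth position) was in 12 of the 55 genes (21.8%), against 7.73% of the 15890 arrayed genes with a window. The GABP core CCGGAAG was in 11 (20.0%, against 13.5%), the YY1 motif (the capitals in Ndufb11 below, with any base at the third position) in 7 (12.7%, against 3.90%) and the GC box GGGCGG in 25 (45.5%, against 52.7%). The motifs do not contain one another, and a match describes the letters only. The NRF1 motif stood in genes of complex I (Ndufa5, Ndufa6, Ndufa8, Ndufa11, Ndufs5 and Ndufs6), in the assembly factors Ndufaf4 and Ndufaf5, in Sdha and Sdhd, in Uqcrc1 and in Cox6a1.

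The 250 bases before the start are shown for 3 genes that are followed closely below, with the motifs in capitals. Cox6b2 was the one gene that passed the test, and Ndufs5 came closest to it after Cox6b2. Ndufb11 was past an unadjusted P of 0.05 in 3 comparisons, as were Ndufs5 and Cox8b. No share over all probe sets is given for that count. For Ndufb11 it includes Ts1Cje cortex, where animal Eup347 stood apart. The 3 genes lie on the reverse strand, with windows at chr7:4753095-4753344, chr4:123718187-123718436 and chrX:20617620-20617869.
Cox6b2: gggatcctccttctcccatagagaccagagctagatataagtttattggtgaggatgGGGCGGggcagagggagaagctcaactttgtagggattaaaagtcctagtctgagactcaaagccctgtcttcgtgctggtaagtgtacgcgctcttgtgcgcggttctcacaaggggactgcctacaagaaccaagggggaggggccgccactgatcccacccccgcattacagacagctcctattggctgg
Ndufs5: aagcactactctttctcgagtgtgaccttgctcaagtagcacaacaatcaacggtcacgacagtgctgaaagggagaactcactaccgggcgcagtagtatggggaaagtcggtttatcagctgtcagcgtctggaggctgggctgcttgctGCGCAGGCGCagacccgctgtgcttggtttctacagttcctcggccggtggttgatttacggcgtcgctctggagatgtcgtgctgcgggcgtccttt
Ndufb11: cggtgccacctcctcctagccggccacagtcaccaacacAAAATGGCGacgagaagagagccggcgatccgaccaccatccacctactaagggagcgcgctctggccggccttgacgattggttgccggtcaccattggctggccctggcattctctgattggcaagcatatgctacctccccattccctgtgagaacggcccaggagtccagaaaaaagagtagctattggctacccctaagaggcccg
The capitals mark a GC box in Cox6b2, the NRF1 motif in Ndufs5 and the YY1 motif in Ndufb11.

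The signal of a probe set depends on its probes, so its position within the array was compared only for the same gene between tables, and such comparisons rest on tables treated as normalized apart. In euploid animals the 71 genes had a median position at percentile 80.9 to 82.7 of all probe sets in the 3 forebrain tables, and at percentile 88.2 to 91.1 in the 9 adult tables. Between E15.5 forebrain and adult cortex the percentile was higher in adult cortex for 52 genes (Ts1Cje), 57 (Ts65Dn) and 58 (Dp(16)1/Yey), and it was higher in all 3 models for 41 genes and lower in all 3 for 4. Sdha, the flavoprotein of complex II, went from 95.2 to 98.9 in Ts1Cje (SD 1.3 and 0.59), from 96.2 to 99.1 in Ts65Dn and from 97.1 to 99.2 in Dp(16)1/Yey. Ndufs1, the largest iron-sulphur subunit of complex I, went from 76.1 to 91.9, from 85.9 to 91.5 and from 88.4 to 90.3. Sdhd, a membrane anchor of complex II, went from 78.5 to 92.1, from 85.8 to 88.6 and from 82.0 to 89.5. The Ts1Cje forebrain table differed from the other 2 for some genes. Cox7a2l (SCAF1, which joins complexes III and IV) was at percentile 45.0 there and at 90.0 and 90.4 in the others, and Cox8a at 98.5 against 88.6 and 84.5.

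The restricted isoforms of complex IV differed by region in the euploid animals. Cox7a1, the heart and skeletal muscle form, was at percentile 45.8, 45.3 and 45.2 in cortex of the 3 models (in the order Ts1Cje, Ts65Dn, Dp(16)1/Yey) and at 56.0, 52.1 and 53.9 in cerebellum. Cox6b2, known as the testis form, was at 38.5, 41.2 and 39.3 in cortex and at 47.6, 47.1 and 48.3 in cerebellum. Both were thus higher in cerebellum in every model by more than their SD. Cox8b, another muscle form, was at 28.6, 27.6 and 29.0 in cortex and at 37.5, 38.3 and 40.0 in hippocampus, with an SD of up to 8.1 points. Cox6a2, the heart and muscle form that is also known from some neurons, ran the other way, from 58.8, 56.5 and 57.4 in cortex to 50.7, 49.2 and 52.9 in cerebellum. Cox4i2 (the lung form) stayed between 44.4 and 49.6 in the adult regions, and Ndufa4l2, the hypoxia-inducible relative of Ndufa4, between 42.3 and 44.9. Cox7b2, a testis form, was at 13.1, 13.4 and 15.8 in cortex and at 18.4, 15.9 and 17.4 in cerebellum, with SDs of up to 3.9 points.

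**Figure D1:**
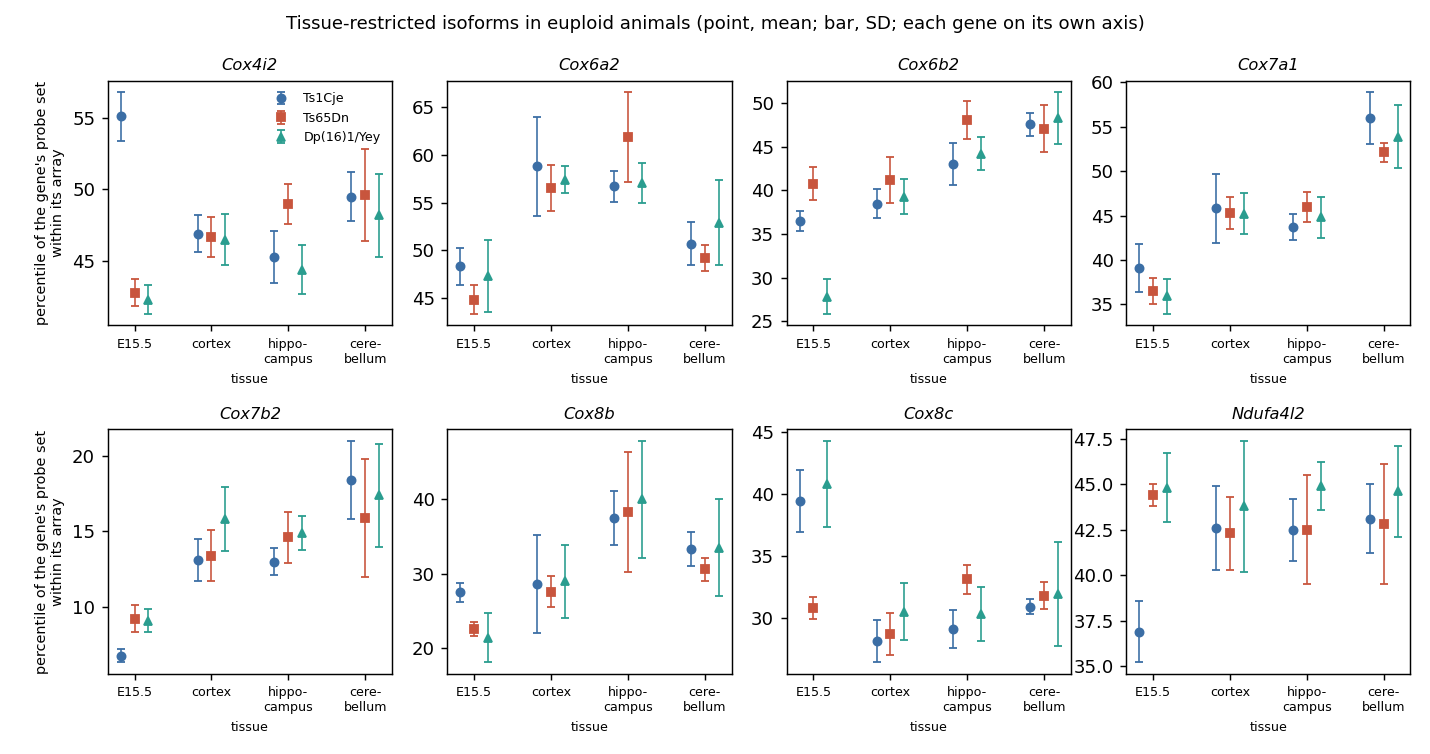
Position of 8 restricted isoforms within the array in euploid animals, by tissue (x axis) and model (symbols); the y axis is the percentile of the probe set among all probe sets of its array, and bars are SDs over animals. Cox7a1 and Cox6b2 were higher in cerebellum than in cortex and Cox6a2 lower, in all 3 models.

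The first question was whether any of these genes differed between trisomic animals and their euploid littermates. With the threshold of the study (differentially expressed, DEX: Benjamini-Hochberg FDR<10% over all probe sets of the 12 comparisons together, here from limma), 1 of the 852 combinations of gene and comparison was DEX. This was Cox6b2, which was lower in Ts1Cje cerebellum. Of all probe sets, 0.259% (Ts1Cje), 0.264% (Ts65Dn) and 0.0895% (Dp(16)1/Yey) were DEX in forebrain. In cortex it was 0.0424%, 0.349% and 0.00942%, in hippocampus 0.316%, 0.132% and 0.0660%, and in cerebellum 0.429%, 0.297% and 0.0188%, in the same order of models. With 71 genes these shares amount to less than 1 gene in each comparison, so the count of 1 was close to the background. Without TS18 the count was also 1, and 0.151% of all probe sets were DEX in Ts65Dn hippocampus.

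The changes were small throughout. The log2 change was under 0.2 in size for 804 of the 852 combinations. At an unadjusted P under 0.05, 11 combinations were higher in trisomic animals, where the share of all probe sets over the 12 comparisons was 3.17%, and 28 were lower, where it was 3.06%. These 39 fell on 27 genes, and no gene was past this limit in more than 3 comparisons. Trisomic and euploid values did not overlap at all in 7 of the 852 combinations, 4 of them in Dp(16)1/Yey hippocampus. No share over all probe sets was computed for such separation. Most genes whose animals are listed below were picked for a low P, so separation adds no separate evidence. The marginally dysregulated category of the study (unadjusted P under 0.05 and fold change, FC, over 1.2 or under 0.8) held 3 combinations that were higher (background 1.16%) and 2 that were lower (background 0.403%). Without TS18 there were 10 higher and 28 lower combinations at an unadjusted P under 0.05, on 26 genes.

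**Figure D2:**
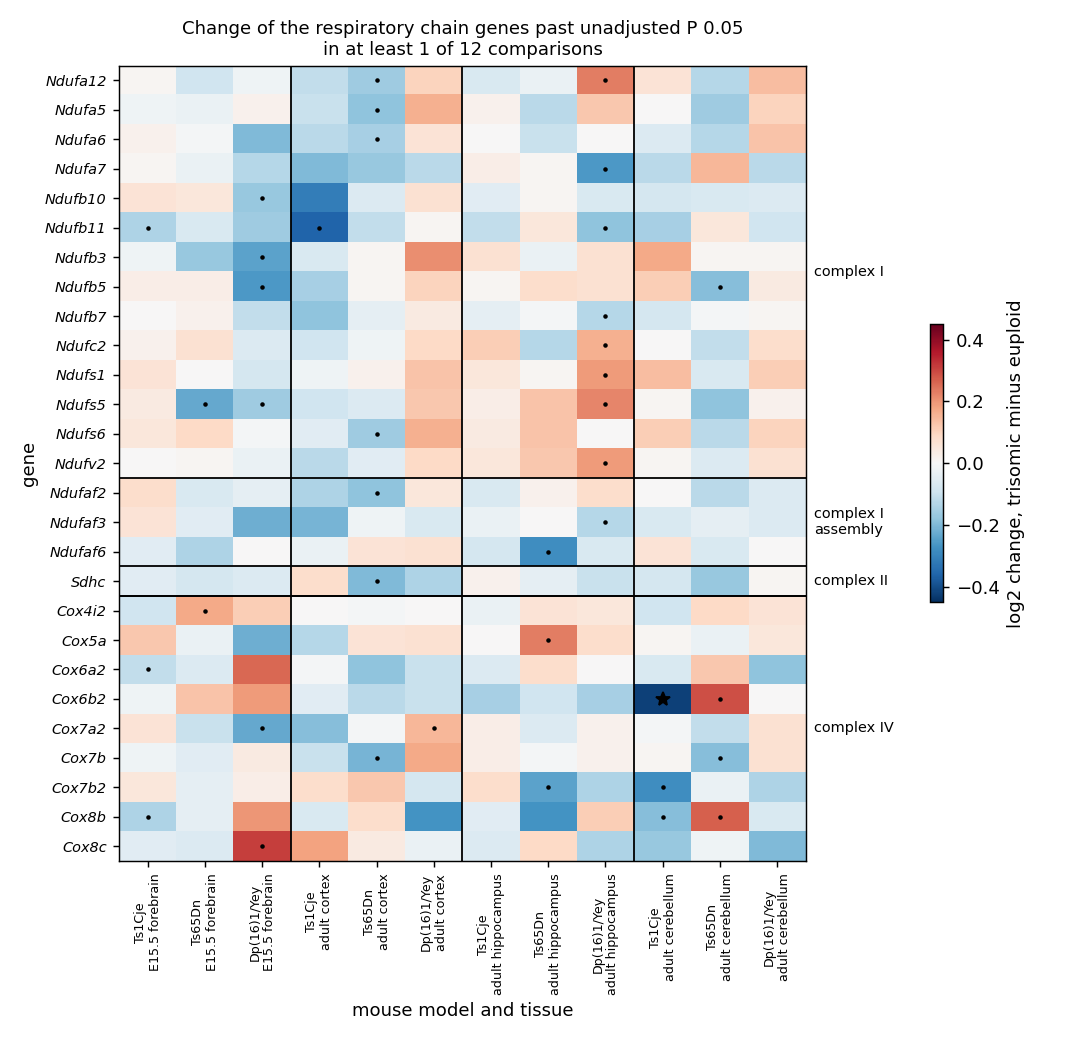
Log2 change (trisomic minus euploid, colour) in the 12 comparisons (columns) of the 27 genes (rows, by complex) that had an unadjusted P under 0.05 in at least 1 comparison, all animals included; none of complex III had. The star marks the 1 DEX gene, Cox6b2 in Ts1Cje cerebellum, and dots mark the other 38 combinations at an unadjusted P under 0.05.

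Cox6b2 encodes the testis form of subunit 6B, which sits on the outer face of complex IV where the dimer forms. Its log2 signal in cerebellum was 6.34, 6.43, 6.46, 6.46 and 6.58 in the euploid littermates of Ts1Cje. It was 5.87, 5.94, 6.00, 6.12 and 6.23 in the Ts1Cje animals. All 5 Ts1Cje values were below all 5 euploid values. The change was -0.42 on the log2 scale (SE 0.08, FC 0.745, adjusted p = 0.0572). In the Ts65Dn set the euploid values were 6.15, 6.28, 6.43, 6.56 and 6.60 and the trisomic values 6.35, 6.54, 6.66, 6.85 and 7.05. These groups overlapped, with the trisomic mean higher by 0.29 (SE 0.13, adjusted p = 0.785). In Dp(16)1/Yey cerebellum the means were alike (6.51 in both groups, SE 0.12 for the difference).

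The difference between the Ts1Cje and Ts65Dn effects on Cox6b2 in cerebellum was itself -0.71 (SE 0.17), with an unadjusted P of 1.9e-04 and an adjusted p of 0.29. In the other tissues the change of Cox6b2 lay between -0.15 and 0.19, and none was DEX. Cox6b1, the form found in most tissues, changed by -0.04 (SE 0.10), -0.02 (SE 0.09) and 0.00 (SE 0.10) in cerebellum, in the same order of models as above. The DEX call of Cox6b2 stood near its limit. Its adjusted p was between 0.0314 and 0.164 when each of the 10 animals was left out in turn, and was over 0.1 for 7 of them (Eup324, Eup350, Eup365, Eup371, TS348, TS349 and TS366). It was 0.201 with the methods' t-test, and the probe set was below the median of its table, so that it was absent when dim probe sets were left out.

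In E15.5 forebrain no respiratory chain gene was DEX. In Ts1Cje forebrain 46 genes were higher and 25 lower (median log2 change 0.02, and -0.00 over all probe sets), 0 were higher at an unadjusted P under 0.05 (background 2.79%) and 3 were lower (background 1.60%). These were Ndufb11, Cox6a2 and Cox8b. Of the probe sets above this table's median signal, 41.6% were lower (median 0.01). Of the 59 respiratory chain genes among them 16 were lower (median 0.03). Olfactory receptor genes moved the other way, with 899 of 1098 lower (median -0.06). In Ts65Dn forebrain 28 were higher and 43 lower (median -0.01, and -0.00 over all probe sets), with 1 past the limit in each direction (background 2.45% higher and 2.29% lower).

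The lower one in Ts65Dn was Ndufs5, an accessory subunit on the intermembrane-space side of complex I. Its signal was 9.23, 9.34 and 9.46 at the lowest, median and highest of 7 euploid embryos. It was 9.02, 9.10 and 9.17 at the lowest, median and highest of 6 Ts65Dn embryos. The groups did not overlap, and the change was -0.23 (SE 0.05, FC 0.853, adjusted p = 0.102), just outside the threshold. Ndufs5 was DEX with an adjusted p of 0.0485 under a mean-variance trend with robust moderation, 0.0348 without dim probe sets and 0.0726 when p-values were adjusted within this comparison alone. It was not DEX with the methods' t-test (0.113), with centred arrays (0.115) or with sex as a covariate (0.192). With each embryo left out in turn its adjusted p was 0.0914 to 0.228, and below 0.1 only without Eup06. The gene was also lower in Dp(16)1/Yey forebrain (-0.16, SE 0.07, adjusted p = 0.785) and differed by 0.04 (SE 0.07) in Ts1Cje forebrain. Cox4i2 was the higher one in Ts65Dn (0.17, SE 0.06, adjusted p = 0.711).

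Region markers moved in the same table by as much as Ndufs5. All 3 forebrain markers were lower (median -0.23, 2 past an unadjusted P of 0.05), with a mean per embryo of 10.04 to 10.41 in euploid and 9.86 to 10.35 in trisomic embryos. Of 5 hippocampal markers 3 were lower, 2 of them past an unadjusted P of 0.05 (8.34 to 8.66 and 8.33 to 8.55). Neurod6 is in both lists, so these are not separate. All 5 muscle markers were higher (median 0.31), and embryo TS01 deviated from the euploid mean by 1.52 for these and by -0.41 for neuron markers. None of these markers was DEX. Without TS01 the change of Ndufs5 was -0.21 (adjusted p = 0.184). The part of the markers in the Ndufs5 result was not tested.

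In Dp(16)1/Yey forebrain 59 of the 71 genes were lower and 12 higher, with a median of -0.09, where the median over all probe sets was 0.01 and 47.5% of them were lower. Brighter probe sets were lower as a whole in this table. Among probe sets above the table's median signal, 58 of 62 respiratory chain genes were lower (median -0.11), against 66.7% of all probe sets of that range (median -0.05). By complex, 33 of 36 genes of complex I, 6 of 7 assembly factors, 4 of 4 of complex II, 7 of 7 of complex III and 9 of 17 of complex IV were lower. At an unadjusted P under 0.05, 1 gene was higher (Cox8c, background 3.41%) and 5 were lower (Ndufb3, Ndufb5, Ndufb10, Ndufs5 and Cox7a2, background 2.51%), and none was DEX.

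Ndufb3, an accessory subunit of the membrane arm of complex I, had the lowest P of those that were lower. It was at 7.49, 7.68 and 7.79 (lowest, median, highest) in 6 euploid embryos and at 7.21, 7.49 and 7.57 in 6 Dp(16)1/Yey embryos, a change of -0.24 (SE 0.08, adjusted p = 0.673). Cox8c, a testis form, was at 6.57, 6.83 and 7.23 in euploid and at 6.94, 7.12 and 7.38 in Dp(16)1/Yey embryos, a change of 0.31 (SE 0.11, adjusted p = 0.705). The groups overlapped for both genes.

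The shift in Dp(16)1/Yey forebrain was uneven between embryos. The mean deviation of the 71 genes from the euploid mean was between -0.13 and 0.06 in the euploid embryos and between -0.15 and 0.04 in the trisomic ones, where 5 of 6 were below 0. Olfactory receptor genes, which are not known to be transcribed at appreciable levels in this tissue, moved the other way. Of 1098 such genes 776 were higher (median 0.07), and their mean signal per embryo ran from 4.44 to 4.73 in euploid and from 4.42 to 4.82 in trisomic embryos. The 3 measured genes of red blood cells were lower (median -0.35, per-embryo mean 8.44 to 8.97 in euploid and 7.93 to 8.45 in trisomic). All 3 forebrain markers were lower (median -0.08, 10.16 to 10.46 and 10.01 to 10.35), and 5 of 7 cerebellar markers were higher (median 0.15, 7.20 to 7.35 and 7.27 to 7.60). The part of these lists in the respiratory chain result was not tested. Leaving out each embryo in turn gave medians of -0.12 to -0.09.

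**Figure D3:**
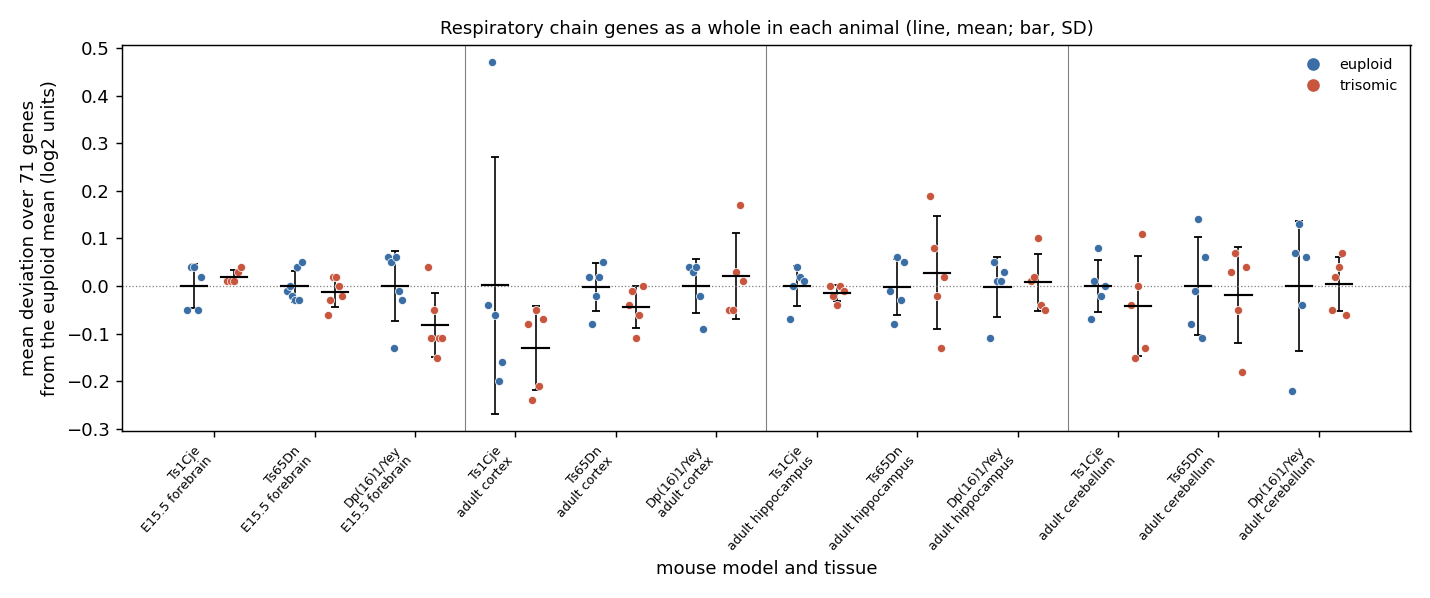
Mean deviation of the 71 genes from the mean of the euploid animals of the same table (y axis, log2 units) for each animal, by model and tissue (x axis), with the group mean and SD. Euploid animal Eup347 of Ts1Cje cortex stood at 0.47, and 5 of 6 Dp(16)1/Yey embryos stood below 0.

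In adult cortex no gene was DEX. In Ts1Cje cortex 64 of 71 genes were lower (median -0.13, and -0.02 with 55.5% lower over all probe sets), but this rested on 1 euploid animal. Animal Eup347 was 0.47 above the euploid mean over the 71 genes, and the other 4 euploid animals were between -0.20 and -0.04. The 5 Ts1Cje animals were between -0.24 and -0.05, within that range or close to it. Olfactory receptor genes were also highest in animal Eup347 (0.30 above the euploid mean). Its marker lists deviated from the euploid mean by -0.43 (endothelial), -0.33 (hippocampal), -0.78 (choroid plexus), 0.64 (red blood cells) and 0.31 (muscle). The choroid plexus markers varied as widely among the other euploid animals, up to 0.74. Their part in the result was not tested. Without Eup347 the median change was -0.02. The gene past an unadjusted P of 0.05 was Ndufb11 (1 lower, background 1.68%; 0 higher, background 1.2%), and its change of -0.36 (SE 0.16, adjusted p = 0.793) was -0.20 without animal Eup347.

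In Ts65Dn cortex 49 genes were lower and 22 higher (median -0.03, and -0.00 over all probe sets). At an unadjusted P under 0.05, 7 were lower (background 2.74%) and 0 higher (background 3.33%). These were Ndufa5, Ndufa6, Ndufa12 and Ndufs6 of complex I, the assembly factor Ndufaf2, Sdhc and Cox7b. Of the probe sets above this table's median signal, 46.9% were lower (median 0.00). Of the 63 respiratory chain genes among them 46 were lower (median -0.04). Cox7b, a small subunit of complex IV that is needed for its assembly, was at 8.65, 8.73, 8.74, 8.88 and 8.93 in the euploid animals. It was at 8.50, 8.51, 8.54, 8.61 and 8.69 in the Ts65Dn animals. The groups overlapped by 1 animal on each side, and the change was -0.21 (SE 0.07, adjusted p = 0.617).

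Ndufa6, an accessory subunit of the matrix arm, was at 8.94, 9.03, 9.05, 9.06 and 9.19 in euploid and at 8.88, 8.89, 8.89, 8.91 and 8.92 in Ts65Dn cortex. These groups did not overlap, but the change was only -0.15 (SE 0.06, adjusted p = 0.706). Sdhc, which anchors complex II in the inner membrane, was at 9.73, 9.73, 9.78, 9.78 and 9.92 in euploid and at 9.32, 9.48, 9.61, 9.73 and 9.78 in Ts65Dn cortex (change -0.20, SE 0.09, adjusted p = 0.778). In the other adult regions of Ts65Dn the change of Cox7b was -0.19 (SE 0.09, adjusted p = 0.796) in cerebellum and -0.01 (SE 0.09) in hippocampus (-0.03 without TS18).

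Cortex of Dp(16)1/Yey had 44 genes higher and 27 lower (median 0.02, and -0.01 over all probe sets), with 1 higher past an unadjusted P of 0.05 (background 2.04%) and 0 lower (background 2.83%). The 1 gene was Cox7a2, the subunit 7A form of most tissues, at 8.74, 8.77, 8.83, 8.90 and 8.95 in euploid and 8.90, 8.95, 9.00, 9.02 and 9.06 in Dp(16)1/Yey animals (change 0.15, SE 0.07, adjusted p = 0.799). In forebrain of the same model its change was -0.23 (SE 0.09, adjusted p = 0.74). Above the median signal of the Dp(16)1/Yey cortex table, 50.9% of all probe sets were lower (median -0.00). Of the 63 respiratory chain genes in that range 20 were lower (median 0.03).

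In hippocampus no gene was DEX. In Ts1Cje the changes ran from -0.15 to 0.11, 44 genes were lower and 27 higher (median -0.01, as over all probe sets), but among probe sets above the table's median signal 37 of 63 genes were lower (median -0.01) where 38.9% of all probe sets of that range were (median 0.02). None of the 71 genes was past an unadjusted P of 0.05 in either direction (background 4.19% higher and 6.11% lower).

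The direction in Ts65Dn hippocampus rested on TS18. With it, 48 genes were higher and 23 lower (median 0.04, and 0.03 over all probe sets). Without it, 31 were higher and 40 lower (median -0.01, and 0.03 over all probe sets). The mean deviation of the 71 genes in TS18 was 0.19, where its oligodendrocyte markers deviated from the euploid mean by 0.90 and its choroid plexus markers by -2.50. Choroid plexus markers were also low in TS4 (-2.36), whose mean deviation over the 71 genes was -0.02. Their part in the result was not tested. At an unadjusted P under 0.05, 1 gene was higher with TS18 (Cox5a, background 3.48%) and 0 without it (background 4.99%). The same 2 genes, Ndufaf6 and Cox7b2, were lower with it (background 1.22%) and without it (background 1.5%).

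Cox5a, which faces the matrix in complex IV, was at 8.77, 8.99, 9.01, 9.01 and 9.02 in euploid and 9.00, 9.15, 9.22, 9.24 and 9.36 in Ts65Dn animals. The groups overlapped, and the change was 0.23 (SE 0.09, adjusted p = 0.746), or 0.19 without TS18 (SE 0.09, adjusted p = 0.79). Ndufaf6 changed by -0.28 (SE 0.12, adjusted p = 0.779) and by -0.32 without TS18, and Cox7b2 by -0.24 (SE 0.10, adjusted p = 0.785) and by -0.30 without it.

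In Dp(16)1/Yey hippocampus 9 genes were past an unadjusted P of 0.05, the most of any comparison, and 8 of the 9 were subunits of complex I. Of these, 5 were higher (Ndufa12, Ndufc2, Ndufs1, Ndufs5 and Ndufv2, background 5.36%) and 4 lower (Ndufa7, Ndufb7, Ndufb11 and the assembly factor Ndufaf3, background 4.72%). Over all 71 genes 40 were higher and 31 lower (median 0.00, and -0.01 over all probe sets). The shares of 5 and 4 of 71 lay near the background of this table.

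Ndufa7, an accessory subunit of the matrix arm, was at 7.76, 7.87, 7.87, 7.92 and 7.93 in euploid and at 7.56, 7.58, 7.59, 7.65 and 7.67 in Dp(16)1/Yey hippocampus. The groups did not overlap (change -0.26, SE 0.06, FC 0.835, adjusted p = 0.198). It was DEX with the methods' t-test (adjusted p = 0.0789) and without dim probe sets (adjusted p = 0.0558). It was not DEX with trend and robust moderation (0.151), with centred arrays (0.199), with p-values adjusted within the comparison (0.295) or with any animal left out (0.143 to 0.392). Ndufa12, also of the matrix arm, was at 9.41, 9.45, 9.53, 9.55 and 9.57 in euploid and at 9.67, 9.70, 9.71, 9.74 and 9.83 in Dp(16)1/Yey animals. Here, too, the groups did not overlap, in the opposite direction (change 0.23, SE 0.06, FC 1.17, adjusted p = 0.369).

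Ndufs5 was at 9.44, 9.49, 9.51, 9.60 and 9.78 in euploid and at 9.76, 9.79, 9.79, 9.80 and 9.80 in Dp(16)1/Yey hippocampus. Its change of 0.22 (SE 0.07, adjusted p = 0.579) was opposite in sign to the one in forebrain of the same model. The core subunits Ndufs1 (0.19, SE 0.07, adjusted p = 0.694) and Ndufv2 (0.19, SE 0.07, adjusted p = 0.722), both iron-sulphur proteins of the electron path, were higher by similar amounts. Ndufb7, in the membrane arm, changed by -0.13 (SE 0.05, adjusted p = 0.772).

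In cerebellum, apart from Cox6b2, no gene was DEX. In Ts1Cje cerebellum 46 genes were lower and 25 higher (median -0.04, and -0.02 over all probe sets). At an unadjusted P under 0.05 there were 3 lower (Cox6b2, Cox7b2 and Cox8b, background 5.44%) and 0 higher (background 3.62%). All 3 are restricted isoforms of complex IV. In Ts65Dn cerebellum 44 were lower and 27 higher (median -0.02, and 0.01 over all probe sets), with 2 higher (Cox6b2 and Cox8b, background 4.35%) and 2 lower (Ndufb5 and Cox7b, background 2.52%). In Dp(16)1/Yey cerebellum 39 were higher and 32 lower (median 0.01, and -0.01 over all probe sets), with 0 past the limit in either direction (background 1.88% higher and 3.12% lower).

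Cox8b, the muscle form of subunit 8, was at 5.25, 5.37, 5.48, 5.50 and 5.64 in the euploid littermates of Ts1Cje and at 5.14, 5.15, 5.25, 5.33 and 5.42 in Ts1Cje cerebellum (change -0.19, SE 0.08, adjusted p = 0.784). In the Ts65Dn set it was at 5.15, 5.22, 5.32, 5.35 and 5.38 in euploid and at 5.35, 5.43, 5.58, 5.65 and 5.76 in trisomic animals (change 0.27, SE 0.08, FC 1.21, adjusted p = 0.567). The groups overlapped in both models. Cox6b2 and Cox8b thus shared opposite signs in the 2 models, and the difference of effects for Cox8b was -0.46 (SE 0.19, adjusted p = 0.92). Of the 5 muscle markers Ckm, Acta1, Actc1, Mylpf and Tnnt3, 0 were DEX in either cerebellum, and their mean per animal was 6.10 to 6.21 in euploid and 5.97 to 6.22 in Ts1Cje, and 6.19 to 6.32 in euploid and 6.16 to 6.21 in Ts65Dn. Olfactory receptor genes, whose probe sets are dimmer still than those of Cox6b2 and Cox8b, moved the same way as both: 809 of 1098 were lower in Ts1Cje (median -0.06, per-animal mean 3.59 to 3.72 in euploid and 3.52 to 3.62 in trisomic). In Ts65Dn 813 were higher (median 0.06, 3.60 to 3.67 and 3.58 to 3.81). Cerebellum of Dp(16)1/Yey, where Cox6b2 changed by -0.00, had 887 lower (median -0.10).

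Other marker lists also moved in cerebellum. In Ts1Cje, 4 of 5 neural progenitor markers were lower (median -0.11), and their mean per animal, 6.56 to 6.61 in euploid and 6.41 to 6.53 in trisomic animals, did not overlap. All 4 choroid plexus markers were lower (median -0.25, 2 past an unadjusted P of 0.05, 8.71 to 9.21 and 8.33 to 8.91), as were all 5 astrocyte markers (median -0.13, 9.79 to 10.18 and 9.83 to 10.01). In Ts65Dn, all 5 astrocyte markers were lower (median -0.12, 9.75 to 10.18 and 9.77 to 9.93) and all 3 genes of red blood cells higher (median 0.28, 5.36 to 5.78 and 5.72 to 5.98). Of the neural progenitor markers 4 of 5 were also lower in Ts65Dn (median -0.09) and in Dp(16)1/Yey (median -0.08). Of the 3 red blood cell genes 2 were higher in Ts1Cje (median 0.21) and in Dp(16)1/Yey (median 0.20). The 5 microglia markers were all higher in Ts1Cje (median 0.06) and in Dp(16)1/Yey (median 0.07), while 4 were lower in Ts65Dn (median -0.11). Choroid plexus markers had a median of 0.14 in Ts65Dn, with 2 of 4 higher. In Dp(16)1/Yey all 4 were higher (median 0.51, 5.95 to 9.00 in euploid and 8.57 to 8.89 in trisomic animals). Of the astrocyte markers 4 of 5 were lower in Dp(16)1/Yey (median -0.03). None of these genes was DEX. The part of the olfactory receptor genes and of these markers in the Cox6b2 and Cox8b results was not tested.

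Ndufb11, an X-linked subunit of the membrane arm of complex I, was lower in 9 of the 12 comparisons and in all 4 Ts1Cje tissues. In Ts1Cje forebrain it was at 10.04, 10.14, 10.16, 10.24 and 10.25 in euploid and 9.93, 10.04, 10.04, 10.05 and 10.06 in trisomic embryos (change -0.14, SE 0.05, adjusted p = 0.658). The change was -0.11 (SE 0.05, adjusted p = 0.806) in Ts1Cje hippocampus and -0.15 (SE 0.08, adjusted p = 0.826) in Ts1Cje cerebellum. It was -0.18 (SE 0.06, adjusted p = 0.694) in hippocampus of Dp(16)1/Yey. In Ts65Dn it ran from -0.11 to 0.05, the latter in hippocampus (0.02 without TS18). The groups overlapped in each of these tissues, and the 3 adult regions of a model share their animals. No share over all probe sets is given beside these counts of comparisons.

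**Figure D4:**
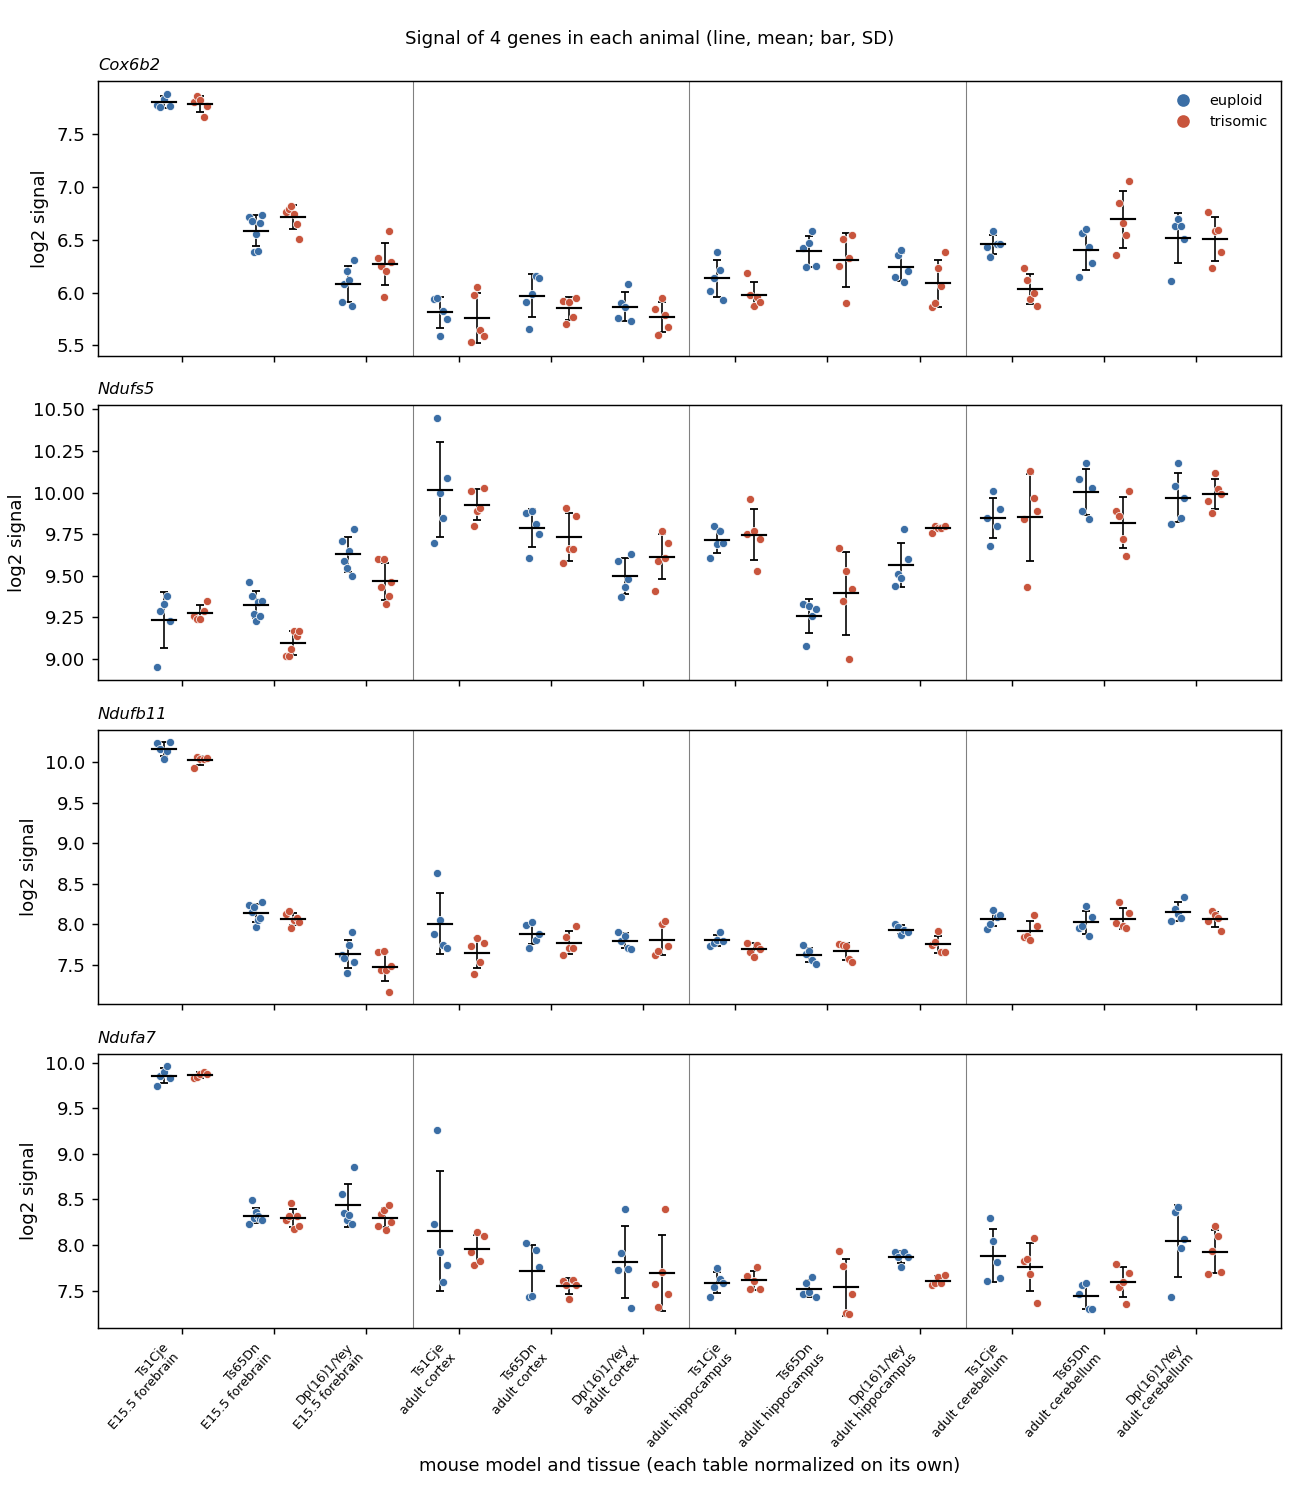
Log2 signal (y axis) of Cox6b2, Ndufs5, Ndufb11 and Ndufa7 in every animal, by model and tissue (x axis), with the group mean and SD. The groups did not overlap for Cox6b2 in Ts1Cje cerebellum, Ndufs5 in Ts65Dn forebrain and Ndufa7 in Dp(16)1/Yey hippocampus. Such separation held in 7 of all 852 combinations, and no share over all probe sets was computed.

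Complex II and the catalytic subunits of complex III gave no DEX gene either. Cyc1, the cytochrome c1 of complex III, ran from -0.28 (SE 0.18) in Ts1Cje cortex to 0.07 (SE 0.12) in Ts65Dn hippocampus over the 12 comparisons. Uqcrfs1, the Rieske iron-sulphur protein of the same complex, ran from -0.21 (SE 0.13) to 0.15 (SE 0.09) in the same pair of tables. Sdha ran from -0.14 (SE 0.12) to 0.08 (SE 0.07) and Sdhb, the iron-sulphur subunit beside it, from -0.15 (SE 0.13) to 0.09 (SE 0.06). Without TS18 the changes in Ts65Dn hippocampus were -0.01 for Cyc1, 0.10 for Uqcrfs1, -0.01 for Sdha and 0.01 for Sdhb. Each of these ranges crossed 0 with TS18, and no adjusted p of these 4 genes was below 0.84. Cox4i1 in Ts1Cje cortex showed the weight of animal Eup347, which stood at 11.61 while the other euploid animals were at 9.99, 10.20, 10.50 and 10.58 and the Ts1Cje animals at 10.10, 10.11, 10.18, 10.35 and 10.45.

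Some genes had the same sign in most comparisons. They are the extremes of the whole set and were picked after the values were seen. No share over all probe sets is given beside them, and the adult regions of a model share animals. Whether such counts exceed chance was not tested. Uqcrq (a small subunit of complex III) and Cox5b (a zinc-binding subunit of complex IV) were lower in 11 of 12 comparisons. Ndufb8, Ndufaf3, Uqcr10 and Cox8a were lower in 10, and Ndufa10 was higher in 10. Without TS18, Ndufb8 and Ndufaf3 were lower in 11 and the other counts stayed as they were. The unadjusted P of Uqcrq and Cox5b was under 0.05 in 0 of 12.

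Whether the effect of trisomy on a gene differed between models of the same tissue was tested directly in 12 contrasts, in which each model enters 2 contrasts of a tissue. Of 852 combinations 0 passed FDR<10% (background 0.0373%), the lowest adjusted p being 0.29 for Cox6b2 in cerebellum. At an unadjusted P under 0.05 there were 52 (background 5.28%), of which 17 were in the contrast of Ts1Cje with Dp(16)1/Yey forebrain, where 7.2% of all probe sets passed. The lowest P there was for Cox4i1, the main form of subunit 4, whose effect was 0.28 higher in Ts1Cje (SE 0.09, adjusted p = 0.77). Between the adult regions of a model, 9 contrasts gave 0 of 639 at FDR<10% (background 0.00262%) and 14 at an unadjusted P under 0.05 (background 3.48%). Without TS18 both families again gave 0 at FDR<10%, with 51 between models (background 5.71%) and 12 between regions (background 3.83%) at an unadjusted P under 0.05.

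Other genes of the pathway were described from lists that were set by known function, with earlier results of these data known. Of 12 measured genes of ATP synthase (complex V), only Atp5o and Atp5j were DEX in any comparison, and both lie on MMU16. Of all probe sets, 0.00942% to 0.429% were DEX in a comparison. No complex V gene was DEX in any Dp(16)1/Yey tissue, in Ts1Cje cortex or in Ts65Dn cerebellum. Atp5o, in the stalk that joins the membrane part of the enzyme to its head, was triplicated in all 3 models. In Ts1Cje it was higher in forebrain (0.44, SE 0.06, adjusted p = 0.013), hippocampus (0.43, SE 0.05, adjusted p = 0.0028) and cerebellum (0.41, SE 0.08, adjusted p = 0.082). In Ts65Dn it was higher in forebrain (0.37, SE 0.05, adjusted p = 0.0037), cortex (0.40, SE 0.06, adjusted p = 0.025) and hippocampus (0.56, SE 0.09, adjusted p = 0.024), where it was also DEX without TS18 (0.52, SE 0.09, adjusted p = 0.0373). Atp5j, triplicated in Ts65Dn and Dp(16)1/Yey, was DEX in Ts65Dn forebrain (0.39, SE 0.04, adjusted p = 0.0011) and cortex (0.40, SE 0.05, adjusted p = 0.0048), and differed by -0.00 (SE 0.04) in Ts1Cje forebrain, where it has 2 copies. None of the 24 measured assembly factors of complexes III and IV, of the 4 of complex II, or of Cycs and Cyct, the cytochromes c, was DEX.

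Among 11 measured regulators of mitochondrial genes, 3 were DEX in at least 1 comparison, where 0.00942% to 0.429% of all probe sets were DEX in a comparison. Gabpa, the DNA-binding subunit of GABP, is triplicated in Ts65Dn and Dp(16)1/Yey. It was higher in Ts65Dn forebrain (0.35, SE 0.06, adjusted p = 0.048), cortex (0.39, SE 0.06, adjusted p = 0.019) and cerebellum (0.45, SE 0.07, adjusted p = 0.029) and in Dp(16)1/Yey cerebellum (0.38, SE 0.07, adjusted p = 0.064). Tfb1m, a methyltransferase of the mitochondrial ribosome, lies in the MMU17 segment of Ts65Dn. It was higher in Ts65Dn forebrain (0.44, SE 0.06, adjusted p = 0.01), cortex (0.63, SE 0.09, adjusted p = 0.019) and cerebellum (0.60, SE 0.11, adjusted p = 0.067). In Ts65Dn hippocampus Gabpa changed by 0.39 (SE 0.11, adjusted p = 0.477) and Tfb1m by 0.59 (SE 0.13, adjusted p = 0.173). Without TS18 these were 0.40 (adjusted p = 0.486) and 0.53 (adjusted p = 0.256), and neither gene was DEX there. Gabpb1, which encodes the partner subunit of GABP and has a normal copy number, was lower in Ts65Dn cerebellum (-0.35, SE 0.06, FC 0.783, adjusted p = 0.027). Its change in Dp(16)1/Yey was -0.23 (SE 0.06, adjusted p = 0.36) in forebrain and -0.22 (SE 0.08, adjusted p = 0.73) in cerebellum.

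The 11 respiratory chain genes with the GABP core in their window had a median change of 0.01, -0.02, 0.09 and -0.02 in Ts65Dn forebrain, cortex, hippocampus and cerebellum, and the 44 with a window and no core had medians of -0.02, -0.05, 0.02 and -0.03. In hippocampus without TS18 these medians were 0.04 and -0.03. Gabpa is also triplicated in Dp(16)1/Yey, where the medians with the core were -0.10, 0.01, -0.03 and 0.00 in the same order of tissues. The medians with a window and no core were -0.09, 0.03, 0.03 and 0.01 there. The genes with the core thus had the higher median in each Ts65Dn tissue and the lower median in each Dp(16)1/Yey tissue. In Ts1Cje, where Gabpa is not triplicated, the medians with the core were 0.03, -0.15, -0.02 and -0.08. Those with a window and no core were 0.02, -0.13, -0.00 and -0.02 there. The medians thus also differed without extra Gabpa, in both directions, and the part of the core was not tested. These are descriptions of small lists.

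**Figure D5:**
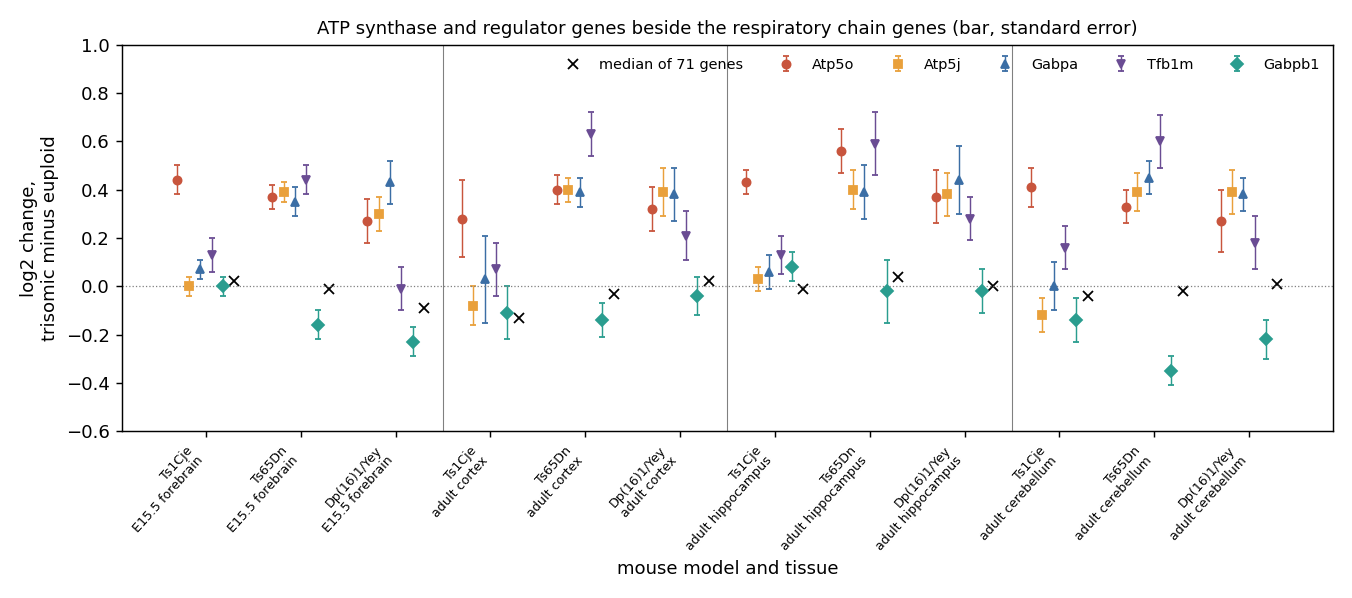
Log2 change (trisomic minus euploid, y axis) with its standard error for Atp5o, Atp5j, Gabpa, Tfb1m and Gabpb1, beside the median of the 71 respiratory chain genes (crosses), by model and tissue (x axis). The genes stood between 0.27 and 0.63 where they have 3 copies, and the median of the 71 genes, all animals included, stayed between -0.13 and 0.04.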

How the data were processed

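RNA from E15.5 forebrain and 3 adult regions (RNA integrity above 9) was hybridised to Affymetrix Mouse Gene 1.0 ST arrays. The deposited values are log2 probe set signals that the authors made by robust multichip average (RMA) with a custom chip definition of 1 probe set per Entrez gene; RMA compresses small differences at low signal. Repeat arrays of an animal were averaged. Trisomic and euploid animals were compared within each table with limma 3.58.1 (R 4.3.3), without covariates, and the 254700 p-values were adjusted together by the Benjamini-Hochberg method (FDR limit 10%). The test was tried on simulated data, with p-values adjusted within each simulated table. Models and regions were compared as differences of effects. SEs and p-values cover animals, 5 to 7 in a group. No depth applies to arrays, whose number limits the precision. Genes named were those called, the 2 higher and 2 lower with the lowest P in each comparison, tissue isoforms and core subunits; Ndufb7, Ndufb8, Ndufb10, Ndufa8, Ndufa10, Ndufa11, Ndufc2, Ndufaf2 to Ndufaf5, Uqcr10, Uqcrq and similar genes in lists were named after their values were seen. The members and lists were chosen with earlier results of these data known. Alternatives comprised the methods' t-test, a trend with robust moderation, centring, a filter on dim probe sets, sex as covariate, other FDR limits and leaving out each animal. The 3 forebrain markers were chosen after values were seen. Some genes are not reported here by name.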

Additional observations from a re-analysis of the deposited data

Results flagged for a closer look

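Of 150 groups of animals examined, 16 held an animal set off from the rest by a large part of the group's range. For separate groups chosen beforehand chance gives about 1 in 20. Here only 24 groups were of the mean over the 71 genes. The rest were of genes picked for a low P, and many groups share arrays, so an excess was not shown. For the mean over the 71 genes, euploid animal Eup347 of the Ts1Cje cortex set stood at 0.47, with the others between -0.20 and -0.04, and euploid animal Eup260 of the Dp(16)1/Yey hippocampus set at -0.11, with the others between 0.01 and 0.05.

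Among single genes in forebrain, 1 Ts1Cje embryo was at 8.61 for Ndufa1 (others 8.48 to 8.52) and 1 at 9.93 for Ndufb11 (others 10.04 to 10.06). For Ndufaf6 in the Ts65Dn set a euploid embryo was at 7.11 (others 6.66 to 6.83) and a trisomic one at 6.30 (others 6.62 to 6.75). For Cox6a2 in the Dp(16)1/Yey set, euploid embryo 13 was at 7.64 (others 7.08 to 7.22), and the same embryo had the highest olfactory receptor signal of its group (0.22 above the mean).

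In Ts65Dn cortex a euploid animal was at 9.92 for Sdhc (others 9.73 to 9.78) and a trisomic one at 8.78 for Uqcrfs1 (others 8.57 to 8.59). In Ts65Dn hippocampus a euploid animal was at 8.77 for Cox5a (others 8.99 to 9.02). In Dp(16)1/Yey hippocampus a euploid animal was at 8.29 for Ndufb7 (others 8.38 to 8.41) and a trisomic one at 9.86 for Ndufs1 (others 9.57 to 9.64).

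In cerebellum of the Ts1Cje set, Ndufa9 was at 9.48 in euploid animal Eup347 (others 9.93 to 10.00) and at 9.80 in a trisomic animal (others 10.07 to 10.10). Ndufb5 was at 8.77 in a Ts65Dn animal (others 9.06 to 9.13), and Cox8c at 5.58 in a Dp(16)1/Yey animal (others 5.06 to 5.21).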

How the results depend on the processing

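The DEX call of Cox6b2 in Ts1Cje cerebellum was lost (0 genes) with the methods' t-test, without dim probe sets and at an FDR limit of 5%. Ts65Dn forebrain gained 1 DEX gene, Ndufs5, with trend and robust moderation, without dim probe sets, with p-values adjusted within each comparison and at an FDR limit of 20%. Dp(16)1/Yey hippocampus gained 1, Ndufa7, with the t-test, without dim probe sets and at 20%. Leaving out each animal in turn gave 0 to 1 DEX genes in Ts1Cje cerebellum (lost without Eup324, Eup350, Eup365, Eup371, TS348, TS349 or TS366) and 0 to 1 in Ts65Dn forebrain (gained without embryo Eup06). The number of combinations that were higher at an unadjusted P under 0.05 was 7 without dim probe sets, against 11. No value reversed its direction past the threshold. Medians near 0 changed sign when an animal was left out, for example -0.01 to 0.07 in Ts65Dn hippocampus (0.04 with all animals and -0.01 without TS18, whose region markers went against its label), and the median of Ts1Cje cortex ran from -0.18 to -0.02.

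The sample labels give no litter, so the comparison of trisomic with euploid littermates was not paired and litter was not modelled. The adult regions share animals, and with the animal as a replicate block 0 genes differed in effect between regions, as without it. The contrasts without TS18, an alternative chosen after seeing the data, gave 0 between models and 0 between regions, as with it.

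Groups held 5 to 7 animals. Of 100 probe sets raised by 50% in simulated data, 85 were recovered in Ts1Cje cerebellum and 59 in Ts1Cje cortex. Of 100 raised by 25%, 45 and 13 were recovered, and 804 of the 852 changes were under 0.2 on the log2 scale, smaller than either. The simulated p-values were adjusted within each table, where the results above adjusted all comparisons together. The simulated noise was independent between probe sets. These recovery figures describe that setting only and may be too high for the test used here.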
